A study of Homo sapiens with 4 samples.

Results

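The Fanconi anaemia, homologous recombination and DNA damage checkpoint genes were followed in cisplatin-sensitive and cisplatin-resistant head and neck squamous cell carcinoma (HNSCC) cells. The 38 genes were taken from a list of names, and all 38 were found among the 43305 gene names on the array. Gene expression was measured on 4 one-colour microarrays. The established HNSCC lines HN4 and HN30, not selected with cisplatin, were the parental controls and had 1 array each. Their resistant derivatives HN4/DDP and HN30/DDP (HN4_CR and HN30_CR in the sample labels), also with 1 array each, had been selected at rising cisplatin doses and, per the labels, were kept for 48 h in medium with 20 μM of the drug. The arrays of the resistant cells therefore carry both the selected state and the drug in the medium, and these cannot be told apart. The question was how the genes that repair cisplatin damage were expressed in each resistant line.

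Cisplatin forms crosslinks within and between the strands of DNA. A crosslink between strands stalls a replication fork, where FANCM and the Fanconi core complex recruit the ubiquitin-conjugating enzyme UBE2T, and FANCD2 and FANCI are monoubiquitinated together. Nucleases then cut around the crosslink, translesion polymerases copy past the remnant, and homologous recombination, with BRCA1, BRCA2, PALB2, RAD51C and RAD51D, repairs the broken chromatid. The kinases ATM, ATR, CHEK1 and CHEK2 signal the damage and hold the cell cycle. Many of these genes are transcribed mostly in dividing cells, in late G1 and S phase.

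Each array carries 60-base probes, and the probe decides which transcript of a gene is read. The first 30 bases of the probes are shown for 4 genes whose probes gave unlike results, all in lower case and 5′ to 3′ on the transcript strand, with the accession that the array design gives each probe.
FANCD2 probe of NM_001018115, chr3:10143006-10143065 (hg19, + strand): agagtttgaaatccgctgtttgcctttctt
FANCD2 probe of NM_033084, chr3:10140927-10140986 (hg19, + strand): ccaccttagagaactgaaataaaaatagaa
FANCD2 probe of NM_001018115, chr3:10114581-10114640 (hg19, + strand): ggaaacttcgatgtggaaactttagatata
RAD51D probe of NM_133629, chr17:33427627-33427686 (hg19, - strand): gggagcatctctgatgaggcatgctggcga
RAD51D probe of NM_001142571, chr17:33426996-33427055 (hg19, - strand): tgatgctgacgtaaataatacatggcaaat
RAD51D probe of NM_002878, chr17:33445524-33445583 (hg19, - strand): atggcgctgatctctacgaggaactgaaga
XRCC3 probe of NM_001100119, chr14:104163955-104164014 (hg19, - strand): tgcctccacatgctgcctggcacagaccag
XRCC3 probe of ENST00000557439, chr14:104170734-104170793 (hg19, - strand): ccagcctgggcgacagagtgagtctcttgt
ATM probe of NM_000051, chr11:108236085-108236144 (hg19, + strand): acgtgtcttaatgagactacaagagaaact
ATM probe of BC007023, chr11:108166338-108166397 (hg19, + strand): agaggtgtgagccacggcatctagccatgc
ATM probe of NM_000051, chr11:108099942-108100001 (hg19, + strand): ctgagaatagcaaaaccaaatgtatcagcc
The letters at the start of the XRCC3 probe of ENST00000557439 are those of the consensus of Alu, a repeat present in very many copies of the human genome. An exact match of its first 20 bases was found in 0 probes named for another gene. That search covers probe sequences only and cannot show whether RNAs of other genes bind the probe.

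Signals are given on the log2 scale relative to the 75th percentile of the processed intensities of an array, so that a level of 0 is the 75th percentile. With 1 array per condition there was no replicate and no test of a resistant line against its parent. A gene was called higher or lower when its difference passed 1 on the log2 scale, which is 2-fold, and its probe was well above background on the brighter array. The error given with a difference is the scanner SD, which follows from the software's error of each spot and was 0.204 to 0.214 for the 38 genes. It does not hold the variation between cultures. The 75th percentile of the signal was 444 to 496 on the 4 arrays, 55.3% to 63.6% of the spots were well above background, 0 spots were saturated, and all 38 genes were well above background on all 4 arrays. As to the cell type, 10 of 10 squamous epithelial markers were well above background on 3 arrays and 9 of 10 on that of HN30/DDP, where KRT6A was not. Of these 10, 4 were higher and 2 lower in HN4/DDP, and 2 higher and 2 lower in HN30/DDP, with KRT5 lower in both lines (differences of -4.05 and -1.93). Of the 6 fibroblast markers, COL1A1 and PDGFRB were well above background on all 4 arrays and COL1A2, COL3A1, DCN and LUM on none, the summed signal was 0.223 to 1.03 times the 75th percentile, and COL1A1 alone was called, higher in both lines. Of the 4 endothelial markers, 2 or 3 were well above background on each array, the summed signal was 0.224 to 0.317, and 1 was higher and 1 lower in HN4/DDP and 2 were higher and 0 lower in HN30/DDP. Of the 4 leukocyte markers, 2 were well above background on 3 arrays and 3 on that of HN30/DDP, the summed signal was 3.66 to 9.29 on 3 arrays and 39.7 in HN30/DDP, and 0 were called in HN4/DDP while 2, CD14 and CD3E, were higher in HN30/DDP. The part of these markers in the differences of the repair genes was not tested.

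In HN30/DDP, 21 of the 38 genes were lower than in HN30 and 0 were higher. Of the 29521 genes tested, those with a signal well above background on some array, 12.7% were lower and 19% were higher in this comparison, and of the 22149 genes well above background on all 4 arrays, as the 38 genes were, 14.6% were lower and 13.7% higher. In HN4/DDP, 2 genes were lower than in HN4 and 2 were higher, where 7.87% of all genes tested were lower and 8.47% higher, or 6.7% and 5.99% of the genes on all 4 arrays. The median difference of the 38 genes was -1.10 in HN30/DDP and -0.07 in HN4/DDP, beside medians of -0.07 and -0.09 over the genes well above background on all 4 arrays. A difference below 0 was found for 32 of the 38 genes in HN30/DDP and for 25 in HN4/DDP, beside 11929 and 12841 of the 22149 genes on all 4 arrays. The difference was below that of HN4/DDP in HN30/DDP for 31 genes, beside 13550 of the 29521 tested. Within 2 scanner SDs of 0 lay 26 genes in HN4/DDP and 5 in HN30/DDP. In a bulk sample, fewer cells that express a gene and less RNA of it per cell cannot be told apart.

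**Figure D1:**
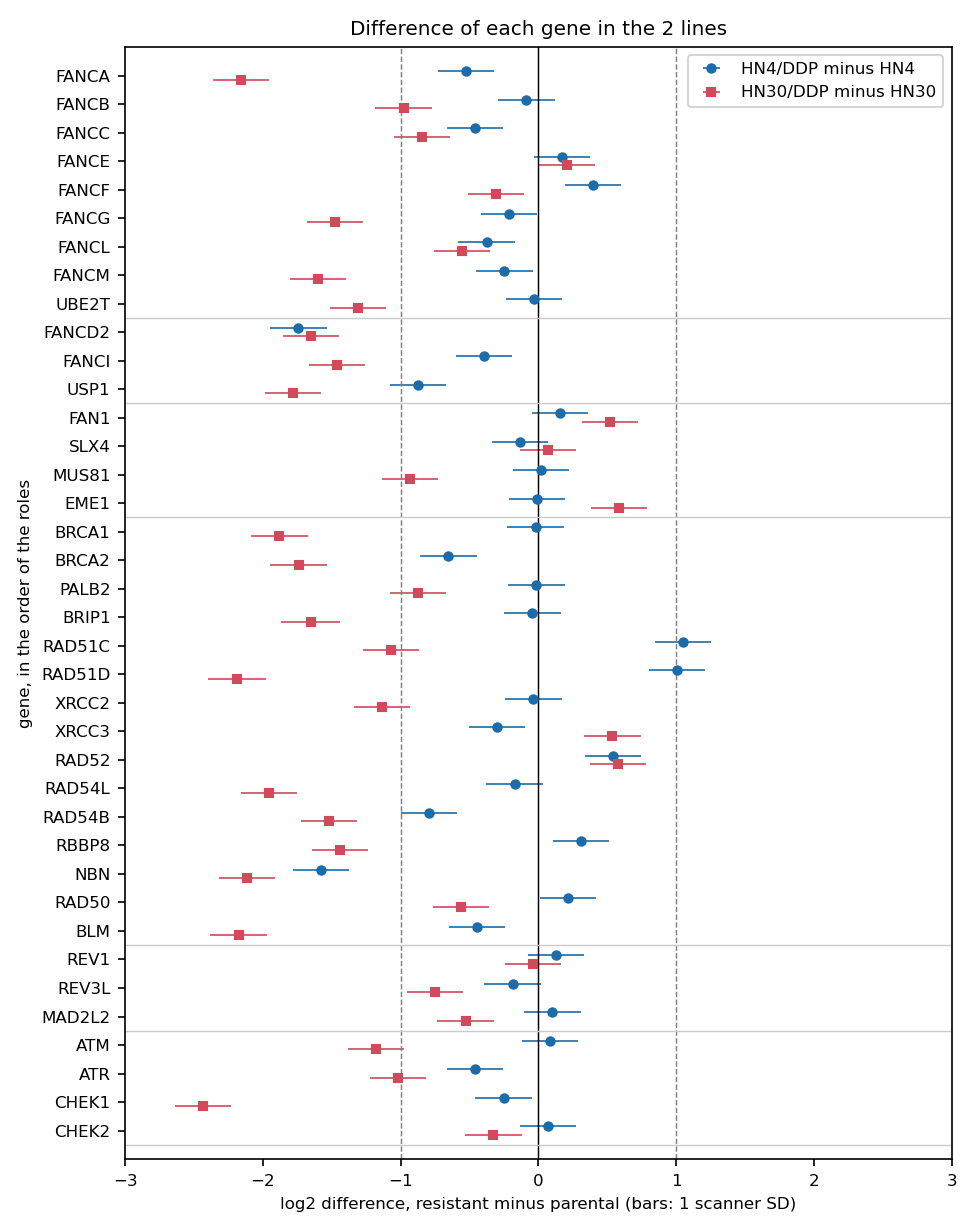
Log2 difference of each of the 38 genes (horizontal axis) for HN4/DDP minus HN4 (circles) and HN30/DDP minus HN30 (squares), grouped by role from the Fanconi core at the top to the checkpoint kinases at the bottom. Bars are 1 scanner SD and dashed lines mark the threshold of 1; most circles lie near 0, while 21 squares lie to the left of -1.

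Between the parental lines, the level in HN30 was above that in HN4 for 34 of the 38 genes, with a median difference of 0.34, beside 12189 of the 22149 genes on all 4 arrays and a median of 0.05. Of the 38, 0 genes passed the threshold, where 2.91% of all genes tested were higher and 6.21% lower in HN30 (1.51% and 4.48% of the genes on all 4 arrays). Of the 4 arrays, HN30/DDP had the lowest level of 31 genes and HN30 the highest of 27. These ranks were not counted over all genes. These comparisons use the same HN4 and HN30 arrays as the comparisons with the resistant lines.

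**Figure D2:**
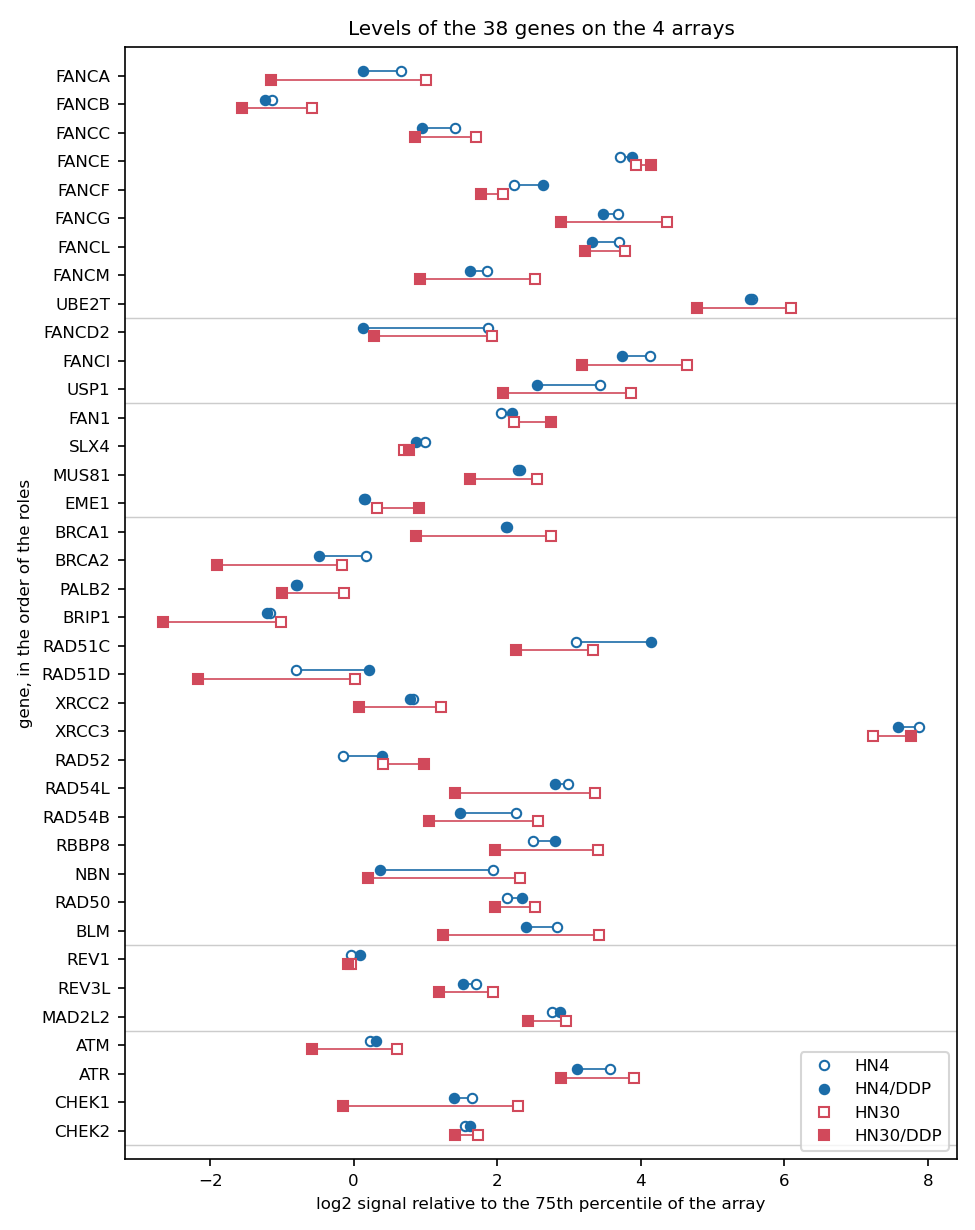
Level of each of the 38 genes on the 4 arrays, as log2 signal relative to the 75th percentile of the array (horizontal axis), with open symbols for the parental and filled symbols for the resistant cells. Levels of different genes come from different probes and are not comparable. The filled squares of HN30/DDP are the leftmost symbol for 31 genes, a rank not counted over all genes.

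Among the Fanconi core genes and UBE2T, which with FANCL as the ubiquitin ligase mark FANCD2 and FANCI, 4 of 9 were lower in HN30/DDP. In HN4/DDP 0 of 9 were lower. The medians were -0.98 in HN30/DDP and -0.21 in HN4/DDP. FANCA, a subunit that pairs with FANCG, had levels of 0.66 and 0.13 in HN4 and HN4/DDP, and 1.00 and -1.16 in HN30 and HN30/DDP. The difference was -2.16 in HN30/DDP (scanner SD 0.205), a 4.46-fold lower signal, and -0.52 in HN4/DDP. All 3 probes of FANCA showed this, with -1.71 to -2.24 in HN30/DDP and -0.45 to -0.80 in HN4/DDP. FANCM, the translocase that brings the complex to DNA, was at 1.86, 1.62, 2.53 and 0.93 in the same order, highest in HN30 and lowest in HN30/DDP, with differences of -0.25 and -1.60 in the HN4 and HN30 pairs. FANCG differed by -1.48 and UBE2T by -1.31 in HN30/DDP, and by -0.21 and -0.03 in HN4/DDP. UBE2T did not pass the threshold in HN30/DDP under 3 of 11 other treatments of the intensities, with -0.74 in the deposited log2 values. FANCB, at -0.98, did not reach the threshold, followed by FANCC at -0.84 and FANCL, the ligase itself, at -0.55. FANCE and FANCF, which with FANCC form a subcomplex, differed little, by 0.21 and -0.31 in HN30/DDP and by 0.17 and 0.39 in HN4/DDP.

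FANCD2, FANCI and USP1, the last of which removes ubiquitin from FANCD2, were all lower in HN30/DDP, at differences of -1.65, -1.46 and -1.78. FANCD2 was also lower in HN4/DDP. In HN4 and HN4/DDP its levels were 1.87 and 0.13, in HN30 and HN30/DDP 1.93 and 0.28, with a 3.35-fold lower signal in HN4/DDP and a 3.14-fold lower one in HN30/DDP. The 3 FANCD2 probes shown above were all below 0 in both lines, but in HN4/DDP only the brightest passed the threshold, at -1.74 against -0.59 and -0.78, while in HN30/DDP all did, at -1.65, -2.03 and -1.77. USP1 was at 3.43, 2.55, 3.87 and 2.09 in the same order, a difference of -0.87 in HN4/DDP that did not reach the threshold.

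None of the 4 nuclease genes passed the threshold in either line, and their medians were 0.00 in HN4/DDP and 0.29 in HN30/DDP. FAN1, a nuclease that binds ubiquitinated FANCD2, was at 2.05, 2.21, 2.23 and 2.75 in parental and resistant HN4 and parental and resistant HN30, and EME1, the partner of MUS81, at 0.15, 0.14, 0.32 and 0.91. Both were thus highest on the array on which most of the other genes were lowest, with differences of 0.52 and 0.59 in HN30/DDP. The dimmer FAN1 probe gave 1.15 there, but it was at -4.32 in HN30, where the lowest signal well above background was -4.63. MUS81 itself differed by -0.93 in HN30/DDP and SLX4, the scaffold of the nucleases, by 0.07. The sign depended on the scaling for SLX4, which was at -0.35 with the arrays scaled to their medians, and for FANCE of the core, which ranged from -0.21, with the same scaling, to 0.71 over the treatments tried. Median scaling shifts all genes of a pair alike, and it put the median of all genes in HN30/DDP at -0.49.

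Of the 15 recombination genes, 11 were lower in HN30/DDP, with a median of -1.52, and 1 was lower and 2 were higher in HN4/DDP, with a median of -0.04. BRCA1, which works in end resection and loads PALB2, was at 2.14 and 2.12 in HN4 and HN4/DDP, and 2.75 and 0.87 in HN30 and HN30/DDP. The HN4 pair was level, and HN30/DDP was lower by a difference of -1.88, 3.68-fold. BRCA2, which acts with PALB2 in strand exchange, differed by -1.74 in HN30/DDP and -0.65 in HN4/DDP, and the helicase BRIP1 by -1.65 and -0.05. PALB2, which joins BRCA1 to BRCA2, did not pass the threshold in HN30/DDP at -0.87. RAD54L, a motor protein of strand invasion, differed by -1.95 in HN30/DDP, and BLM, the helicase that dissolves double Holliday junctions, by -2.18, against -0.17 and -0.44 in HN4/DDP. RBBP8 (CtIP), which starts resection, was lower in HN30/DDP at -1.44 and was at 0.31 in HN4/DDP. RAD54B differed by -1.52 in HN30/DDP and -0.79 in HN4/DDP, but its dimmer probe, of another transcript, gave 0.21 in HN30/DDP.

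NBN, the subunit of the MRN complex that binds ATM, was the other gene lower in both lines. Its levels were 1.94 and 0.37 in HN4 and HN4/DDP, and 2.32 and 0.20 in HN30 and HN30/DDP, with both resistant cells below both parental cells. The difference was -1.58 (2.98-fold) in HN4/DDP and -2.12 (4.34-fold) in HN30/DDP, each with a scanner SD of 0.204. RAD50, the partner of NBN, differed by 0.21 in HN4/DDP and -0.56 in HN30/DDP. FANCD2 and NBN made 2 of 38 genes lower in both lines, beside 1.73% of the 29521 genes tested and 1.87% of those well above background on all arrays.

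RAD51C and RAD51D, which work together in a complex with RAD51B and XRCC2 during homologous recombination, passed the threshold upwards in HN4/DDP and downwards in HN30/DDP, as 0.362% of all genes tested and 0.284% of the genes on all 4 arrays did. RAD51C was at 3.09 and 4.14 in HN4 and HN4/DDP, and 3.34 and 2.27 in HN30 and HN30/DDP, with differences of 1.05 in the HN4 pair and -1.07 in the HN30 pair. RAD51D was at -0.80, 0.21, 0.02 and -2.16 in the same order, with differences of 1.01 and -2.19. The parental lines lay between the 2 resistant lines for both genes. Both values in HN4/DDP and that of RAD51C in HN30/DDP were less than 1 scanner SD past the threshold. RAD51C in HN30/DDP was at -0.68 with the trend of the difference with brightness taken off, -0.72 with quantile normalization and -0.71 in the deposited log2 values, and in HN4/DDP, RAD51D did not pass it under 6 of 11 other treatments of the intensities, quantile normalization and normexp among them. A second RAD51D probe gave 1.02 and -1.68, while the third and dimmest, of NM_002878, gave 0.21 and 0.12, so the pattern held for the first 2 of the 3 RAD51D probes shown above. XRCC2 differed by -0.04 and -1.13, and RAD51B, from the further genes of the pathway, by 0.29 and -0.25.

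XRCC3, which forms a complex with RAD51C, had 2 probes that disagreed in HN30/DDP. The brighter one, of ENST00000557439, was at 7.88, 7.58, 7.23 and 7.77 in parental and resistant HN4 and parental and resistant HN30, a difference of 0.54 in HN30/DDP. The probe of the RefSeq messenger RNA NM_001100119 was at 3.02, 2.66, 3.30 and 1.89, a difference of -1.41, which would have put XRCC3 with the lower genes and made their number 22. The part of the Alu letters in the brighter signal was not tested. RAD52, which anneals single strands, differed by 0.54 in the HN4 pair and 0.58 in the HN30 pair, and its second probe, of NR_123713, by 0.02 and 0.73.

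**Figure D3:**
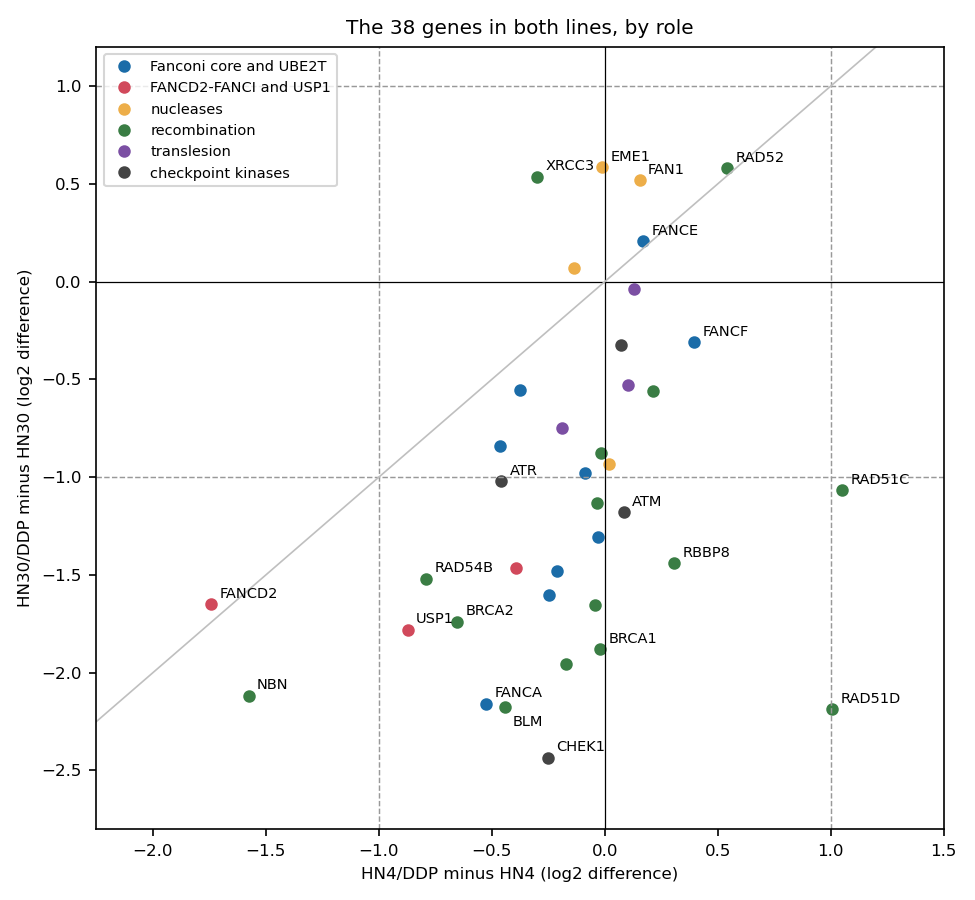
Each of the 38 genes by its log2 difference in HN4/DDP (horizontal axis) and in HN30/DDP (vertical axis), coloured by role, with dashed lines at the threshold of 1 and a grey line of equal difference. FANCD2 and NBN lie past -1 on both axes, RAD51C and RAD51D past 1 on the first and -1 on the second, and 31 genes lie below the grey line.

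Of the 3 translesion genes 0 passed the threshold in either line. REV1, the scaffold polymerase, was at -0.04, 0.09, -0.04 and -0.07 in parental and resistant HN4 and parental and resistant HN30, the most even of the 38 genes in HN30. REV3L, the catalytic subunit of polymerase zeta, differed by -0.75 and its partner MAD2L2 (REV7) by -0.53 in HN30/DDP, and by -0.19 and 0.10 in HN4/DDP.

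Of the 4 checkpoint kinases, 3 were lower in HN30/DDP and 0 in HN4/DDP. CHEK1, the kinase that ATR activates at stalled forks, was at 1.64 and 1.39 in HN4 and HN4/DDP, and 2.29 and -0.15 in HN30 and HN30/DDP. Its difference of -2.43 in HN30/DDP (scanner SD 0.204), 5.41-fold, was the largest of the 38 genes, while that in HN4/DDP was -0.25. ATR was lower at -1.02, within 1 scanner SD of the threshold, and its second probe gave -0.88. The ATR difference did not pass under 4 of 11 other treatments of the intensities, with -0.59 when the trend with brightness was taken off. CHEK2, the target of ATM, differed by 0.07 in the HN4 pair and -0.33 in the HN30 pair, and its 4 probes all lay between -0.54 and -0.29 in HN30/DDP. ATM was called lower in HN30/DDP from its brightest probe, at transcript position 9405, with -1.18, but the probe at position 607 gave 0.41 and that of BC007023 gave 1.27, and with the mean of its probes the difference was 0.17. The call for ATM therefore rests on 1 of its 3 probes.

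**Figure D4:**
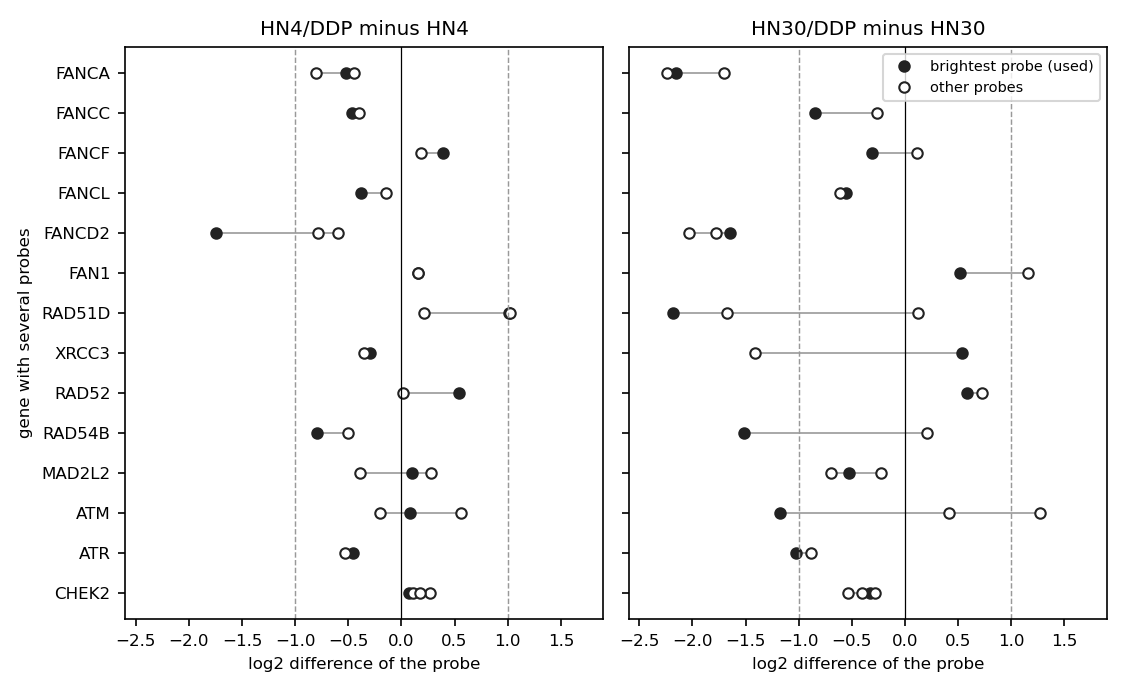
Log2 difference of every probe of the 14 genes with several probes, for HN4/DDP minus HN4 (left) and HN30/DDP minus HN30 (right), with the brightest probe filled and the others open. In HN30/DDP the probes of 4 genes (RAD51D, XRCC3, RAD54B and ATM) span more than 1 and those of 5 genes lie on both sides of 0, against 1 and 2 genes in HN4/DDP.

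The probes of 14 genes could be compared with each other, and 24 genes had a single probe. In HN30/DDP the range over the probes of a gene passed 1 for 4 of the 14, with a median range of 0.50, and in HN4/DDP for 1, FANCD2, with a median of 0.26. The 4 genes printed in 10 spots, FANCA, USP1, BRCA1 and RAD50, had an SD between spots of 0.01 to 0.06 on an array, which is the noise of printing and scanning and not that of cultures.

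Both lines together, with the line as a block, were compared by limma, which with 1 residual degree of freedom called 0 of the 38 genes and 0 of 29521 genes at an adjusted p under 0.05, with unadjusted p under 0.05 for 4 and 2537 genes, the latter 8.59%. The 4 genes were NBN, with a mean difference of -1.85 (SE 0.42, limma adjusted p = 0.484), FANCD2 with -1.70 (SE 0.40, limma adjusted p = 0.485), USP1 with -1.33 (limma adjusted p = 0.548) and BRCA2 with -1.20 (limma adjusted p = 0.581). All 4 had differences below 0 in both lines, and those of USP1 and BRCA2 in HN4/DDP did not reach the threshold.

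Further genes of the same pathways, 52 found of 53 listed, were described by the same rule. In HN30/DDP 27 were lower and 0 higher, with a median of -1.07, beside 12.7% lower and 19% higher of all genes tested. In HN4/DDP 3 were lower and 1 higher, with a median of -0.20, beside 7.87% lower and 8.47% higher of all genes tested. Lower in both lines were 3 genes, beside 1.73% of all genes tested. RAD51AP1, an accessory protein of strand invasion, differed by -0.74 in the HN4 pair and -1.83 in the HN30 pair. The 3 genes lower in both lines were H2AFX, the histone variant phosphorylated around breaks, with -1.59 and -2.67, RPA3, a subunit of the protein that coats single-stranded DNA, with -1.18 and -1.07, and HUS1, of the checkpoint clamp, with -1.03 and -1.50. The only one higher in HN4/DDP, ERCC1, the partner of the nuclease ERCC4, which was named after its values were seen, had 1.03 there and 0.00 in HN30/DDP.

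Genes of the cell cycle were lower on the same arrays. All 25 of the proliferation genes listed were lower in HN30/DDP, with a median of -2.10, beside 12.7% of all genes tested. In HN4/DDP 4 were lower, with a median of -0.49, beside 7.87% of all genes tested. Their summed signal, in units of the 75th percentile, was 850 and 591 in HN4 and HN4/DDP, and 1071.5 and 271 in HN30 and HN30/DDP. MKI67, a marker of cycling cells, was at 3.23, 2.14, 2.98 and 1.35 in the same order, with differences of -1.09 and -1.64, and the other genes lower in both lines were MCM4, TYMS and FOXM1. HN30/DDP had the lowest sum of the 4 arrays and also the lowest level of 31 of the 38 repair genes, a rank not counted over all genes. The part of proliferation in the differences of the repair genes was not tested.

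Of 20 listed genes that DNA damage commonly induces, 15 were higher in HN4/DDP, where 8.47% of all genes tested were. In HN30/DDP 10 were higher and 2 lower, beside 19% and 12.7% of all genes tested. In both lines 10 were higher, where 3.9% of all genes tested and 3.04% of those on all 4 arrays were. The medians were 1.30 in HN4/DDP and 0.96 in HN30/DDP. CDKN1A, the p21 inhibitor of cyclin-dependent kinases, was at -2.20 and 1.37 in HN4 and HN4/DDP, and -2.05 and 0.45 in HN30 and HN30/DDP, with differences of 3.58 and 2.50. The other 4 named, ranked by the smaller of their 2 differences, were GDF15 with 3.72 and 5.18, BTG2 with 2.74 and 2.48, ZMAT3 with 2.35 and 2.25 and SPATA18 with 2.30 and 2.09. The medians of the damage-induced genes were thus above 0 in both resistant lines, while the repair genes were lower mainly in HN30/DDP, and the part of the damage response in the repair genes was not tested.

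**Figure D5:**
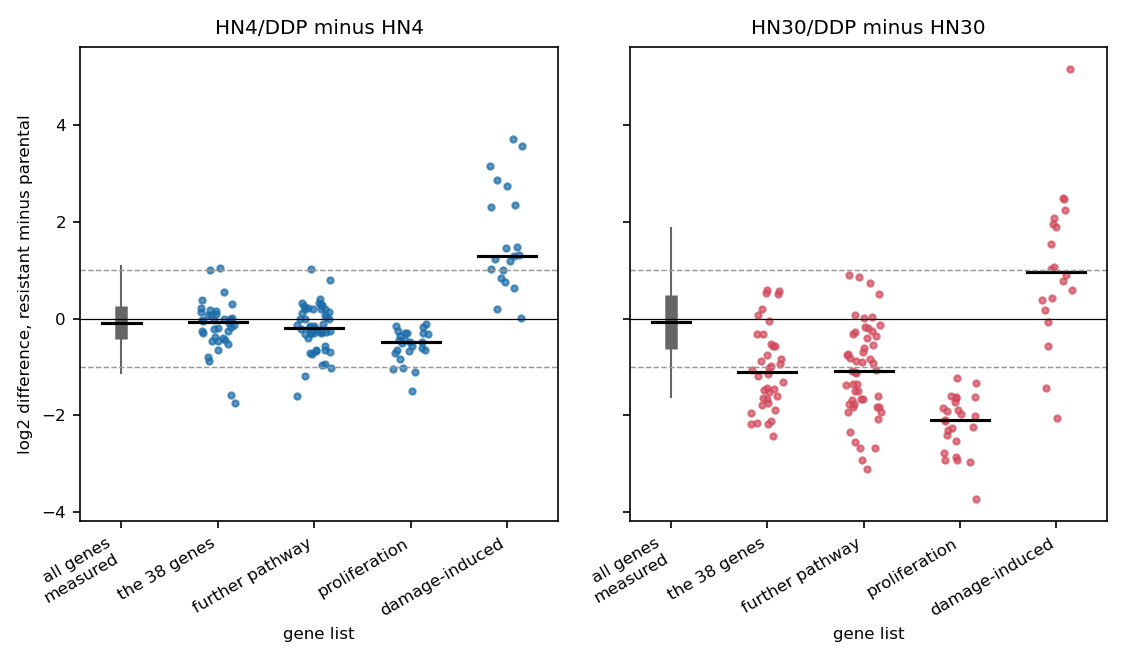
Log2 difference of single genes (points) in 4 lists for HN4/DDP minus HN4 (left) and HN30/DDP minus HN30 (right), with the median of each list as a black line. The first column shows the 22149 genes well above background on all 4 arrays by their median (black line), middle 50% (thick bar) and 5th to 95th percentile (thin line); in HN30/DDP the repair lists have medians of -1.10 and -1.07, the proliferation list of -2.10 and the damage-induced genes of 0.96.

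The promoters of the genes were searched on both strands, in RefSeq windows from 250 bases before to 50 bases after the start of transcription, for the cAMP response element TGACGTCA and its shorter form TGACG, for the E2F letters TTTCCCGC, TTTCGCGC and TTTGGCGC, for CCAAT and for the CHR letters TTTGAA. Every TGACGTCA also counts as TGACG. Windows were found for 35 of the 38 genes. TGACG was in 16 of the 35 genes (45.7%), against 28.4% of the 27305 genes with a window, CCAAT was also in 16 (45.7% against 39.7%), TTTGAA was in 5 (14.3% against 18.2%), and any of the 3 E2F forms was in 4 (11.4% against 3.30%), which were FANCC, FANCD2, REV3L and XRCC2. Of the 18 genes with a window that were lower in HN30/DDP, 9 held TGACG, 10 CCAAT, 4 TTTGAA and 2 an E2F form, and of the other 17 genes 7, 6, 1 and 2 did. The whole TGACGTCA was in 2 genes, RAD51C and XRCC2 (5.71% against 2.25%), both lower in HN30/DDP. In HN4/DDP RAD51C was higher, at 1.05, and XRCC2 differed by -0.04. With the trend with brightness taken off, RAD51C and XRCC2 did not pass the threshold in HN30/DDP, at -0.68 and -0.97. These are matches of letters and not sites, the shares were not tested, and the members' windows were not matched to the others in base composition.

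Stretches of 110 bases are shown for these 2 genes and for FANCD2, 5′ to 3′ on the strand of the gene, with TGACGTCA or, in FANCD2, CGTCA, the reverse complement of the shorter form, in capitals.
RAD51C promoter, chr17:58692492-58692601 (GRCh38.p14, + strand): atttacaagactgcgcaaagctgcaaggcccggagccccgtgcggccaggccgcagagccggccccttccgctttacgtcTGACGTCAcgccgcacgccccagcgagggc
XRCC2 promoter, chr7:152676207-152676316 (GRCh38.p14, - strand): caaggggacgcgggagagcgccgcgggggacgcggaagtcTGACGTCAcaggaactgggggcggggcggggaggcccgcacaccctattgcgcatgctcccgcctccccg
FANCD2 promoter, chr3:10026327-10026436 (GRCh38.p14, + strand): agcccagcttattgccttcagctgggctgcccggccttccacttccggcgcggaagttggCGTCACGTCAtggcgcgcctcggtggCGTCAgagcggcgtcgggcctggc
In RAD51C the match begins at base -30 or -1 from the start, for the 2 starts that RefSeq gives, and in XRCC2 at base -135. In FANCD2 the 3 reverse matches in capitals begin at bases -50, -45 and -24, and an E2F match crosses the start itself.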

How the data were processed

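RNA of 4 cell cultures was labelled with Cy3 and hybridised to Agilent arrays, which per the file headers shared 1 slide and 1 scan. The authors deposited the scanner output, in which Feature Extraction 10.7.1.1 had subtracted the background and given a processed intensity per spot, with probe coordinates on hg19. A second deposited table holds log2 values for 58341 entries, with identical sorted values on all arrays (median 4.65). How it was scaled is not stated in the sources used, and it served as an alternative.

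From the intensities of the 60901 non-control spots, outlier spots were dropped, and log2 signals were set relative to the array's 75th percentile. Averaging the spots gave 58201 probes, and each gene was read by its brightest probe (highest mean of the 4 arrays), as the "named genes" rule set for every listed member; genes of the further pathway, proliferation and damage-induced lists were named when past the threshold in the same direction in both lines, at most 5 a list with the largest smaller difference, with MKI67, CDKN1A and RAD51AP1 always named; other genes that the rule would name are not reported here. RAD51B, ERCC1 and the cell type markers named lie outside this rule and were chosen after their values were seen. The members and all lists were chosen with earlier results of these data known, so no count over them is independent support.

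Both lines were fitted with limma 3.58.1 in R 4.3.3 (trended eBayes, Benjamini-Hochberg over 29521 genes). Values were computed in Python 3.11.15 with pandas 2.3.3 and numpy 2.4.6. Of the 38 probe accessions, 37 matched RefSeq transcripts of the same symbol. Replicates of a condition were not available among these arrays, and culture or extraction batches could not be examined. Precision is limited by the number of arrays.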

Additional observations from a re-analysis of the deposited data

Results flagged for a closer look

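RAD51C passed the threshold upwards in HN4/DDP and downwards in HN30/DDP, and the HN30 difference less the HN4 difference was -2.12 (log2). The downward value of RAD51C, -1.07, was above -1 with quantile normalization, in the deposited log2 values and with the trend with brightness taken off, at its least -0.68. RAD51D showed the same split, with -3.19 (log2), though its upward value, 1.01, did not pass the threshold under 6 of the 11 other treatments, the lowest being 0.75 with the mean of all probes. Of the 29521 genes tested, 547 were called in opposite directions in the 2 lines. RAD51C and RAD51D were singled out because the same contrast ran in opposite directions in the 2 cell lines. With 1 array per condition, this difference was not tested.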

How the results depend on the processing

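The values were recomputed under 11 other treatments of the intensities, of which the percentile over averaged probes and the restriction to probes with an NM accession were chosen after seeing the data, and under thresholds of 2 and 0.5. Among the 11 treatments, setting a floor for dim signals could not change the 38 genes, which were well above background on all 4 arrays. Nor could a filter that asked for a clear signal in parental and resistant cells alike. The restriction to NM accessions could change XRCC3 alone. All counts over the 11 treatments include these fixed values. Of 836 gene differences under the 11 treatments, 711 stayed within 1 scanner SD. A further 124 moved beyond it without turning the direction of a value past the threshold. ATM in HN30/DDP, which was past it, turned to 0.17 with the mean of all probes. Another 11 differences, all under the threshold, changed sign under at least 1 treatment: those of UBE2T, EME1, BRCA1, PALB2, BRIP1, XRCC2 and MAD2L2 in HN4/DDP and of FANCE, SLX4, XRCC3 and REV1 in HN30/DDP, with the widest range in XRCC3, from -1.41 to 0.92. The number of genes lower in HN30/DDP was 17 with the trend of the difference with brightness taken off (beside 2933 of all genes), 26 with median scaling (6769) and 22 with NM probes (2659 of 18586), and 5 at a threshold of 2 (779). Of the 21 genes lower in HN30/DDP, 14 were past the threshold under all 11 treatments (BLM, BRCA1, BRCA2, BRIP1, CHEK1, FANCA, FANCD2, FANCG, FANCM, NBN, RAD51D, RAD54L, RBBP8 and USP1) and 20 were below 0 under all.

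The number of genes higher in HN4/DDP was 1, without RAD51D, with normexp, quantile normalization, a pseudocount of 16, the mean of all probes, the deposited log2 values and the percentile over averaged probes (beside 1101 to 2509 of all genes), and 0 at a threshold of 2 (970). The number lower in HN4/DDP was 0 at a threshold of 2 (590) and 6 at 0.5 (6064), and the number higher in HN30/DDP was 4 at 0.5 (9093). Median scaling moved the median of all genes in HN30/DDP from -0.07 to -0.49, the split of all calls from 5605 higher and 3756 lower to 3861 and 6769, and the median of the 38 genes to -1.52. Without the cell line as a block, limma gave 7 of the 38 genes with an unadjusted p under 0.05, and 0 with an adjusted one. Of all 29521 genes tested, 3261 (11%) had an unadjusted p under 0.05 in that limma fit.

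In the limma fit each resistant line was paired with its parent through the cell line as a block. Single arrays limit every difference: the scanner SD covers the spot and not the culture, and 24 of the 38 genes rest on 1 probe.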
